A study of Homo sapiens with 6 samples.

Results

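The genes described here are the protein-coding genes on the long arm of chromosome 19 that lie between the ZNF146 guide cuts and the 19q telomere. Zinc finger genes (ZNF and ZFP symbols), ribosomal protein genes (RPL and RPS symbols) and BAX, BBC3, FBL, PRMT1, TRIM28 and NDUFA3 were left out, which removed 172 of the 718 protein-coding genes of this stretch. Of the 546 genes that remained, 365 had enough counts to be tested, 103 had some counts but too few and 78 had none in any library. The whole table holds 57773 genes, of which 22010 were tested.

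RNA was sequenced from HEK293, a cell line of human embryonic kidney origin, after transient transfection with PX459, a plasmid that carries Cas9 and a puromycin resistance gene. The 3 groups received PX459 without a guide (EV), PX459 with 4 guides against ZNF146 (sgZNF146) or PX459 with 4 guides against ZNF507 (sgZNF507). All 3 groups thus had the Cas9 plasmid, were selected with puromycin for 36 h and were grown out for 2 weeks in all, as uncloned populations, and each group has 2 libraries. The disruption itself was done in duplicate, so the replicates of a guide group are separate disruptions, and the p-values measure the spread between 2 libraries a group.

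A Cas9 cut leaves a double-strand break, and the part of the chromosome beyond the break has no centromere. Where the break is not rejoined, this fragment can be lost at cell division, and the genes on it are then expressed from fewer copies. Because a gene's mRNA level usually follows its copy number, such a loss in some of the cells appears in bulk RNA as a small common decrease that begins at the cut and extends to the telomere. Both guide sets cut 19q, at different positions. The distal genes thus lie beyond all cuts, and the genes between the cuts lie beyond the ZNF507 cuts only. The short arm (19p) lies on the far side of the centromere. In bulk RNA, loss of expression in some cells and lower expression in every cell cannot be told apart. Each guide set also disrupts its target gene, so the cut and the loss of the target protein cannot be told apart either. Copy number was not measured here, and whether any part of 19q was lost was not tested.

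The target sequences set where the distal genes begin, and they are shown for that reason. The labels list each target without the NGG motif (N stands for any base) that Cas9 needs beside its target. Completed to 20 bases and read on the opposite strand of GRCh37 (hg19), 8 of the 8 lie next to an NGG, while read as listed 2 of the 8 do (ZNF507 guides 1 and 3). They are written 5′ to 3′ in this reading, with the motif in capitals.
ZNF146 guide 1: gaaaatgctcatgctcagtgAGG
ZNF146 guide 2: catcacttattgtacatgtgAGG
ZNF146 guide 3: gccagcagagaatttacagtGGG
ZNF146 guide 4: gagtgtggaaaaaccttcagTGG
ZNF507 guide 1: ggaggaacttgaagcccacgTGG
ZNF507 guide 2: aagtttgtccggaaacaatgTGG
ZNF507 guide 3: tattacatctagaagccaggAGG
ZNF507 guide 4: gagttgacaagagccaacctGGG
The ZNF146 protospacers lie in the coding exon of ZNF146 between positions 36727356 and 36727951 of chromosome 19, and their cuts fall after bases 36727437, 36727948, 36727372 and 36727752 in the order given. The ZNF507 protospacers lie between 32844219 and 32845624, and their cuts fall after bases 32844253, 32845621, 32844235 and 32845277. The sets of cuts are thus 3.88 Mb apart, and both are on the long arm, since the gap that marks the centromere of chromosome 19 ends at 27731782.

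The distal stretch also holds sequences that resemble some of the guides. With 3 or fewer mismatches to the protospacer and an adjacent NGG, 15 such sites lie distal to ZNF146, against 1 on 19p. Of these 15, 13 resemble ZNF146 guide 4, 1 resembles ZNF146 guide 3 and 1 resembles ZNF507 guide 2. ZNF146 consists almost only of zinc fingers, a repeat that many human genes share, and 14 of the sites lie in zinc finger genes or pseudogenes. The closest, with 2 mismatches, is in ZNF160 (53572735 to 53572754), and the exception is in an intron of TRPM4 (49663990 to 49664009), a calcium-activated cation channel. The listed 19 bases of ZNF146 guides 2 and 4 also occur exactly once more each, in ZNF260 (37005173 to 37005191) and ZNF329 (58639982 to 58640000), both distal, but without an NGG in the reading used. Whether any of these sites was cut was not tested.

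Library totals ranged from 22724439 to 28524025 counts, and levels are given in CPM (counts scaled to a common library size after TMM normalization). ZNF507 had 1088 and 1411 counts in the sgZNF507 libraries, against 1792 and 2087 in EV and 1809 and 1843 in sgZNF146. ZNF146 had 2517 and 2583 counts in the sgZNF146 libraries, against 2860 and 2915 in EV and 2036 and 2937 in sgZNF507. These counts are not scaled to library size, and the sgZNF507 libraries have the lowest and the highest total, in that order. Of 9 markers of embryonic kidney or of HEK293, 7 could be matched to the table (PAX2, EYA1, CDH2, VIM, KRT8, KRT18 and NEFM) and had at least 1 CPM in every library, while LHX1 and NEFL could not be matched by identifier. The 5 markers of the mature nephron stayed at or below 0.0764 CPM, and UMOD had no counts.

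No distal gene passed the test for a single gene in either disruption. In sgZNF146 against EV, 0 of the 365 tested members had an adjusted p under 0.05 (quasi-likelihood test of edgeR, Benjamini-Hochberg over 22010 genes), with a background of 0% of all genes tested. In sgZNF507 against EV, 0 of the 365 passed, with a background of 0.182% (0.0682% lower). With both guide groups together against EV, 0 passed, with a background of 0.0136% (0.00909% lower). DESeq2 likewise called 0 members in each of the 3 comparisons. At an unadjusted p under 0.05, 11 members were found in sgZNF146 (10 lower and 1 higher), 11 in sgZNF507 (9 lower and 2 higher) and 9 with the guide groups together (9 lower), which is 3.01%, 3.01% and 2.47% of the members against backgrounds of 2.43%, 3.39% and 2.59% in either direction. Of the 22010 genes tested, 270, 431 and 307 were lower in the same order, and 265, 316 and 263 were higher. The members found were thus mostly lower, while those among all genes were more evenly split. A typical standard error of a member's log2 fold change was 0.085 among those of at least 10 CPM. A decrease of a few percent was thus not detectable in a single gene with 2 libraries a group.

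As a group, the distal genes had lower levels in sgZNF146. The median log2 fold change over the 365 tested members was -0.068, against -2.7e-04 for the 433 tested genes of 19p and -0.0013 for all genes tested. Of the members, 272 (74.5%) had a log2 fold change below 0, against 50.5% of all genes tested and 50.3% of the 19p genes. Among the 200 members of at least 10 CPM, whose values are less affected by counting error, 180 (90%) were below 0, against a background of 52.3% and against 48.3% of 19p genes at that level. Both sgZNF146 libraries lay below both EV libraries for 114 members (31.2%), with a background of 14.6%, and above both for 25 (6.85%), with a background of 14%. The middle 50% of the members lay between log2 fold changes of -0.14 and 0.0031, so most values were small and on 1 side of 0.

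In sgZNF507 the difference was smaller. The median log2 fold change of the members was -0.021, while that of the 19p genes was 0.027. Of the members, 209 (57.3%) were below 0 against a background of 51%, and among those of at least 10 CPM 120 of 200 (60%) were below 0 against a background of 51.3%. Of the 19p genes at that level, 34.4% were below 0. Both sgZNF507 libraries lay below both EV libraries for 47 members (12.9%), with a background of 15.3%, and above both for 39 (10.7%), with a background of 14%, so the members did not exceed the background share. The median turned positive when sgZNF507 replicate 2 (0.029) or EV replicate 2 (0.0039) was left out. Both comparisons use the same EV libraries. With the guide groups together, 249 members (68.2%) were below 0 against a background of 51.6%. Among those of at least 10 CPM, 158 of 200 (79%) were below 0 against a background of 52.2%. All 4 guide libraries lay below both EV libraries for 27 members (7.40%, background 5.36%) and above both for 8 (2.19%, background 4.95%).

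**Figure D1:**
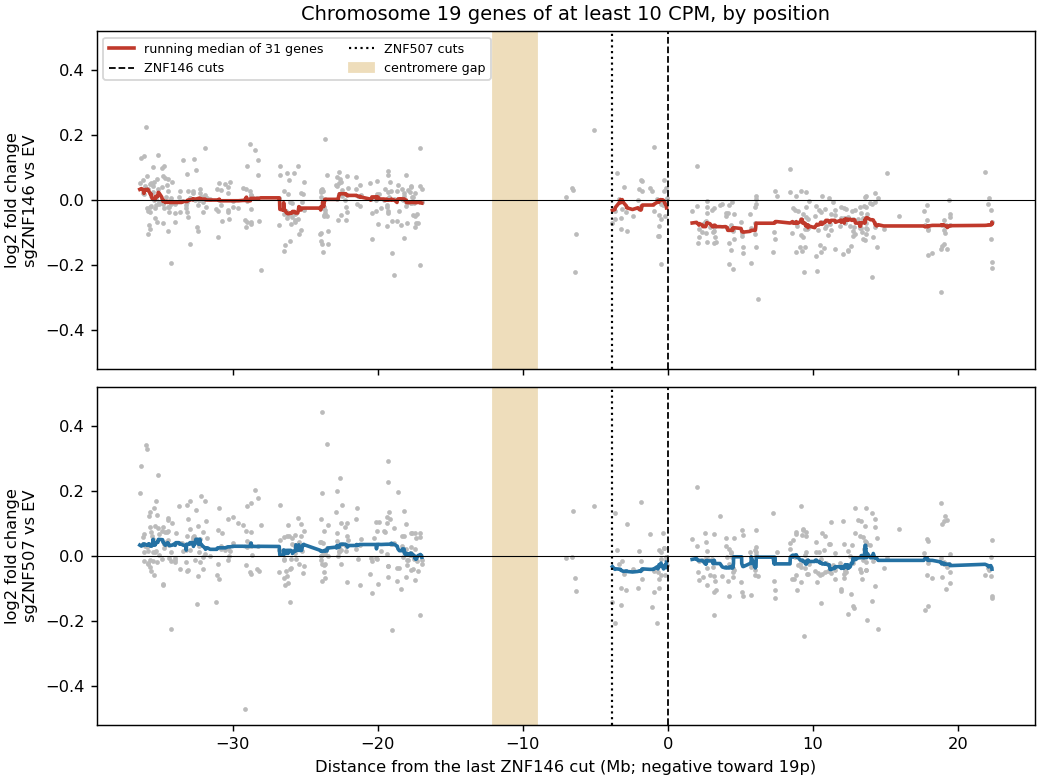
Log2 fold changes of chromosome 19 genes of at least 10 CPM (gray points) against the distance of the gene start from the last ZNF146 cut in Mb, for sgZNF146 (top) and sgZNF507 (bottom) against EV. The colored lines are running medians of 31 genes within 19p, between the cuts and in the distal stretch. In sgZNF146 the line lies near 0 up to the ZNF146 cuts (dashed) and below 0 beyond them, where 180 of 200 genes are below 0, and in sgZNF507 the line is mostly at or below 0 from the ZNF507 cuts (dotted), with a short stretch above it, and mostly above 0 on 19p. The few genes between the centromere gap and the ZNF507 cuts have no line.

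To set the distal genes against 19p in each library, the log2 CPM of each gene was taken relative to its EV mean, and the median over the 19p genes was subtracted from the median over the distal genes. The 19p genes were used because they are on the same chromosome and have a like base composition. The median GC content of the transcripts was 60.4% for the tested members, 61.3% for 19p and 48.7% for all protein-coding genes tested. Before the subtraction, the members' medians were -0.026 and 0.026 in the EV libraries, -0.053 and -0.082 in sgZNF146 and 0.019 and -0.045 in sgZNF507, so sgZNF507 overlapped EV. The corresponding 19p medians were -0.019 and 0.019 in EV, 0.010 and -0.016 in sgZNF146 and 0.057 and -0.0053 in sgZNF507.

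Relative to 19p, the distal genes stood at -0.0076 and 0.0076 in EV, at -0.063 and -0.066 in sgZNF146 and at -0.039 and -0.039 in sgZNF507. The 4 guide libraries lay below both EV libraries, and the sgZNF146 libraries below the sgZNF507 libraries. The group difference was -0.065 for sgZNF146 against EV, with library pairs between -0.074 and -0.056, and -0.039 for sgZNF507, with pairs between -0.047 and -0.031. In percent these are -4.39% (pairs from -5.00% to -3.78%) and -2.67% (pairs from -3.20% to -2.13%). The SD within groups was 0.0064. The EV values are symmetrical because the EV mean is the baseline, and no p is given for this summary of chosen genes.

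The choice of reference bore on sgZNF507 and little on sgZNF146. With the protein-coding genes of all other autosomes in place of 19p, the difference was -0.069 for sgZNF146 and -0.013 for sgZNF507. With other autosomal genes of the same GC range, an alternative added after the data were seen, it was -0.074 and -0.045. Summed levels were also taken, since they use no baseline in EV. The members together had 17887 and 18620 CPM in EV, 17462 and 17289 in sgZNF146 and 18162 and 17617 in sgZNF507. Here sgZNF507 overlapped EV. As a percentage of the summed CPM of 19p, this was 49.9% and 50.7% in EV, 47.7% and 48.2% in sgZNF146 and 48.2% and 48.9% in sgZNF507. By this share the 4 guide libraries lay below both EV libraries. The guide groups overlapped, at 48.23% in sgZNF146 replicate 2 and 48.17% in sgZNF507 replicate 1.

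The genes between the cuts showed another pattern. This segment holds 86 protein-coding genes by the same symbol rule, of which 61 were tested. Relative to 19p, its median was -0.0030 and 0.0030 in EV, -0.030 and 0.012 in sgZNF146 and -0.12 and -0.039 in sgZNF507. In sgZNF146, which cuts beyond this segment, the difference from EV was -0.0085 and changed sign between library pairs (-0.033 to 0.015). In sgZNF507, which cuts before it, the difference was -0.077, with pairs between -0.12 and -0.036, and both libraries lay below both EV libraries. Before the 19p subtraction the differences were smaller in sgZNF507, at -0.051, and -0.011 in sgZNF146. The unsubtracted medians were -0.022 and 0.022 in EV and -0.058 and -0.044 in sgZNF507. The median GC content of the segment's transcripts was 57.4%, against 61.3% for 19p. Between the centromere and the ZNF507 cuts, on the near side of all cuts, 8 genes were tested. The median GC content of their transcripts was 51.2%, further still from that of 19p. Relative to 19p, their median was -0.063 against EV in sgZNF146, with 4 of 4 library pairs below 0, and -0.038 in sgZNF507, with 3 of 4. Gene by gene, their log2 fold changes in sgZNF146 had a median of -0.042, against -0.068 for the distal genes. Both sgZNF146 libraries lay below both EV libraries for 2 of the 8 (25%), against 31.2% of the distal genes and a background of 14.6%. Other summaries were further from the distal genes. Of the 8 genes, 4 (50%) had a log2 fold change below 0 in sgZNF146, against 74.5% of the distal genes. At 10 CPM or more, 2 of 6 were below 0 (33.3%, median 0.021), against 90% of the distal genes (median -0.075). In sgZNF507 their median log2 fold change was -0.0047, and with the guide groups together it was 0.0092. With 8 genes, the median depends on which summary is taken.

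A direct comparison of the guide groups, which uses no EV library and was added after the values were seen, gave the same order. In sgZNF507 against sgZNF146, the median log2 fold change was 0.053 for the distal genes, 0.031 for 19p and -0.029 for the genes between the cuts. Of the distal genes of at least 10 CPM, 42 of 200 (21%) were below 0, against 35.0% on 19p, 67.6% (25 of 37) between the cuts and a background of 50.2%. No member had an adjusted p under 0.05 in this comparison (0 of 365, with a background of 0.173%), and the difference between the segments was not tested.

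**Figure D2:**
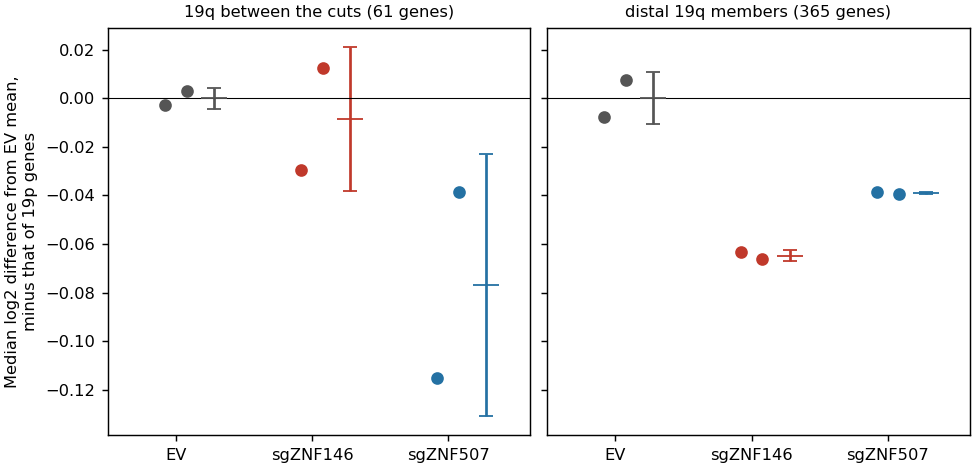
Median log2 difference from the EV mean, minus that of the 19p genes, for the 61 tested genes between the cuts (left) and the 365 tested distal members (right). Points are libraries and the bars beside them are the mean and SD of 2 libraries. For the distal members the 4 guide libraries lie between -0.066 and -0.039, below both EV libraries, while between the cuts sgZNF507 alone lies below EV in both libraries. The 8 tested genes on the near side of all cuts are not drawn. On this measure they stood at -0.063 in sgZNF146 and -0.038 in sgZNF507 against EV, while other summaries of them differed.

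Among whole chromosome arms and the segments of 19q, distal 19q had the lowest median in sgZNF146. The medians of the protein-coding genes were computed for 42 stretches of at least 50 tested genes, which were 40 arms and the segments of 19q on either side of the ZNF146 cuts. Distal 19q ranked lowest in sgZNF146 against EV (-0.068), followed by 7q (-0.038), 6q (-0.026) and 18q (-0.026), and the highest was 13q (0.042). In sgZNF507 against EV, the lowest were 5p (-0.080), 14q (-0.048) and the segment of 19q between the cuts (-0.042), while distal 19q (-0.021) ranked 6 of 42 and 22q was highest (0.043). In sgZNF146 no other stretch was as far from 0 as distal 19q. In sgZNF507 the medians of 5 other stretches lay further below 0 than that of distal 19q. Only 19q was divided, so the ranking sets a part of an arm against whole arms. A difference confined to a part of another arm would be diluted in that arm's median. Between the EV libraries themselves, the medians of distal 19q differed by 0.052, the largest difference of the 42 stretches. The segment between the cuts (0.043) and 19p (0.037) came next.

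**Figure D3:**
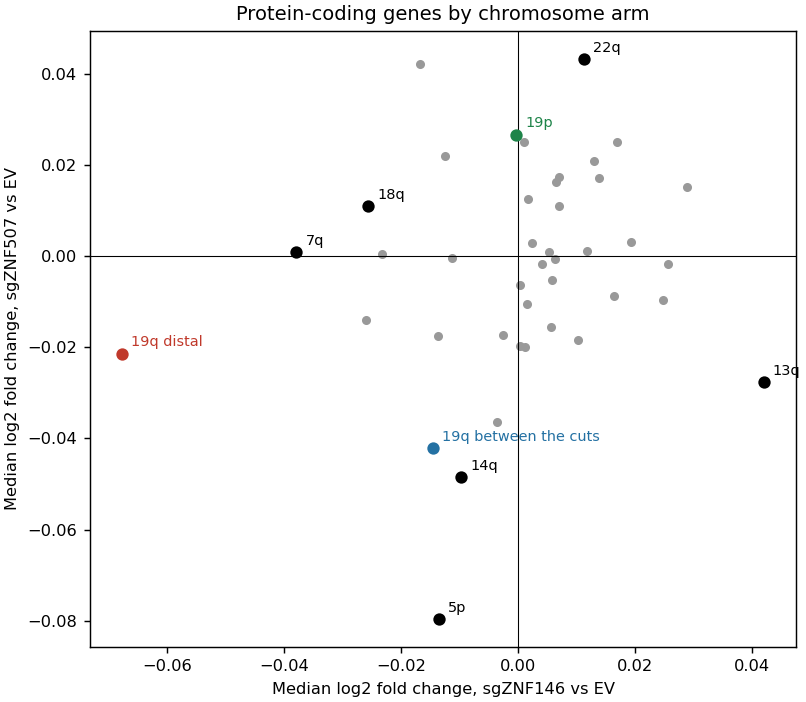
Median log2 fold change of protein-coding genes for 40 chromosome arms and the segments of 19q distal to the ZNF146 cuts and between the cuts, in sgZNF146 against EV (horizontal) and sgZNF507 against EV (vertical), which share the EV libraries. Distal 19q is the leftmost point at -0.068, and 5p is the lowest at -0.080.

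Along the distal stretch, the difference in sgZNF146 was below 0 in each window. In windows of 5 Mb from the start of the stretch, the difference relative to 19p was -0.069 (64 tested genes), -0.047 (86), -0.065 (129), -0.074 (68) and -0.069 (18). In sgZNF507 the same windows had -0.049, -0.025, -0.028, -0.053 and -0.011. In the first 4 windows both sgZNF146 libraries and both sgZNF507 libraries lay below both EV libraries, and in the last, which has few genes, sgZNF507 replicate 2 lay above them (0.058).

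The genes next to the cuts on either side were compared one by one. The last tested genes before the ZNF146 cuts are POLR2I, a subunit of RNA polymerase II, TBCB, a tubulin folding cofactor, and CAPNS1, the small subunit of calpain, whose ends lie 0.121, 0.111 and 0.0861 Mb before the first cut. Their log2 fold changes in sgZNF146 were -4.8e-04, 0.038 and 0.0079. Beyond the cuts follows a cluster of zinc finger genes, and the first tested members start 1.67 Mb (SIPA1L3), 1.97 Mb (DPF1) and 2.01 Mb (SPINT2) after the last cut. SIPA1L3, a regulator of the small GTPase Rap, had 106 and 110 CPM in EV, 103 and 109 in sgZNF146 and 115 and 109 in sgZNF507. DPF1, a subunit of a neuronal chromatin remodeling complex, had 22.1 and 26.0 CPM in EV, 22.5 and 25.04 in sgZNF146 and 23.001 and 26.0 in sgZNF507. Both genes overlapped between groups. SPINT2, a serine protease inhibitor, was higher, with 36.4 and 38.3 CPM in EV, 40.0 and 40.4 in sgZNF146 and 45.9 and 40.6 in sgZNF507, and it was among the highest members in all 3 comparisons (log2 fold change 0.11, SE 0.086, in sgZNF146 and 0.21, SE 0.086, in sgZNF507).

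At the telomeric end, the last 3 tested members are CHMP2A, UBE2M and MZF1. CHMP2A, a subunit of the ESCRT-III membrane scission complex, had 38.1 and 45.3 CPM in EV, 38.5 and 34.7 in sgZNF146 and 37.02 and 39.5 in sgZNF507. UBE2M, which conjugates NEDD8, had 162 and 173 CPM in EV, 166 and 154 in sgZNF146 and 164 and 142 in sgZNF507. MZF1 (59073298 to 59084942), a zinc finger transcription factor without a ZNF symbol, had 43.1 and 47.2 CPM in EV, 36.4 and 41.9 in sgZNF146 and 45.3 and 48.1 in sgZNF507. Of the 3, only MZF1 had both sgZNF146 libraries below both EV libraries (log2 fold change -0.21, SE 0.091).

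The members of at least 10 CPM were then grouped by their roles. In sgZNF146, all tested members at this level were below 0 in 8 of the 11 lists with at least 5 such members, namely transcription machinery (7 of 7), DNA-binding regulators (11 of 11), splicing (8 of 8), DNA repair and replication (7 of 7), proteasome and ubiquitin (8 of 8), translation and ribosome assembly (6 of 6), transporters and channels (5 of 5) and cytoskeleton (6 of 6). The exceptions were mitochondrial enzymes and import (6 of 7), kinases and phosphatases (10 of 13) and membrane traffic (8 of 9). The list of DNA-binding regulators also holds NFKBIB, BICRA and KMT5C, which are not sequence-specific DNA-binding factors. Of all members at this level, 180 of 200 (90%) were below 0, so short lists wholly below 0 are near that share and not particular to a role. The list medians lay between -0.16 (transporters and channels) and -0.043 (kinases and phosphatases), beside -0.075 for all members and -0.0034 for all genes at this level. No member of any list passed the test. In sgZNF507, the list medians lay between -0.063 (transporters and channels) and 0.054 (kinases and phosphatases), beside -0.020 for all members.

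Genes of transcription and RNA processing include the member of highest mean CPM, the splicing factor U2AF2 (476). SUPT5H, a subunit of the elongation factor DSIF, had 236 and 238 CPM in EV, 219 and 225 in sgZNF146 and 230 and 225 in sgZNF507 (log2 fold change -0.096, SE 0.058, and -0.062, SE 0.058). Its 4 guide libraries lay below both EV libraries. CNOT3, a subunit of the CCR4-NOT deadenylase, had 187 and 190 CPM in EV, 176 and 178 in sgZNF146 and 191 and 180 in sgZNF507, so only sgZNF146 was separate from EV. PAF1, which gives its name to an elongation complex, was among the 5 lowest in sgZNF507 (-0.18, SE 0.072), with 122 and 137 CPM in EV, 123 and 122 in sgZNF146 and 109 and 119 in sgZNF507. Among the splicing factors, SNRNP70, the U1 snRNP 70K protein, had 433 and 458 CPM in EV, 430 and 412 in sgZNF146 and 405 and 391.6 in sgZNF507 (-0.081, SE 0.063, and -0.16, SE 0.063). HNRNPUL1, an hnRNP protein, had 486 and 477 CPM in EV, 464 and 456 in sgZNF146 and 465 and 444 in sgZNF507. In both genes the guide libraries lay below both EV libraries. U2AF2, which binds the polypyrimidine tract, had 469 and 505 CPM in EV, 474 and 466 in sgZNF146 and 470 and 471 in sgZNF507, which overlapped.

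The 7 genes of DNA repair and replication had log2 fold changes between -0.14 and -0.078 in sgZNF146 and between -0.078 and -0.016 in sgZNF507, where 90% and 60% of all members of at least 10 CPM were below 0. In sgZNF507 the sign was not stable for the 3 genes of most counts, since without EV replicate 2 POLD1 stood at 0.036, ERCC2 at 0.024 and RUVBL2 at 0.067, and without 1 sgZNF507 library ERCC2 stood at 0.0074 (replicate 2) and RUVBL2 at 0.0052 (replicate 1). ERCC2, the XPD helicase of TFIIH, had 144 and 155 CPM in EV, 132 and 139 in sgZNF146 and 149 and 145 in sgZNF507 (-0.14, SE 0.064, and -0.025, SE 0.064). POLD1, the catalytic subunit of DNA polymerase delta, had 160 and 172 CPM in EV, 152 and 155 in sgZNF146 and 163 and 165 in sgZNF507 (-0.11, SE 0.061, and -0.016, SE 0.061). For both, only the sgZNF146 libraries lay below both EV libraries. RUVBL2, an AAA+ ATPase of chromatin remodeling complexes, had 219 and 248 CPM in EV, 223 and 215 in sgZNF146 and 225 and 235 in sgZNF507, which overlapped. In sgZNF507, by comparison, 7 of the 11 DNA-binding regulators and 10 of the 13 kinases and phosphatases of at least 10 CPM were above 0, not below it.

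Among the transporters, SLC1A5, the glutamine transporter ASCT2, had 269 and 301 CPM in EV, 250 and 261 in sgZNF146 and 280 and 287 in sgZNF507 (-0.16, SE 0.067, and -0.010, SE 0.067). TRPM4, which holds the intronic site that resembles a ZNF146 guide, had 17.4 and 16.2 CPM in EV, 17.4 and 15.5 in sgZNF146 and 20.7 and 16.6 in sgZNF507, with no separation. Of the import machinery of mitochondria, TIMM50 had 128 and 135 CPM in EV, 123 and 120 in sgZNF146 and 127 and 122 in sgZNF507, all guide libraries below EV, and TOMM40 had 244 and 249 CPM in EV, 242 and 230 in sgZNF146 and 245 and 225 in sgZNF507. FTL, the light chain of ferritin, had 185 and 186 CPM in EV, 181 and 163 in sgZNF146 and 182 and 151 in sgZNF507, again with the guide libraries below EV.

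**Figure D4:**
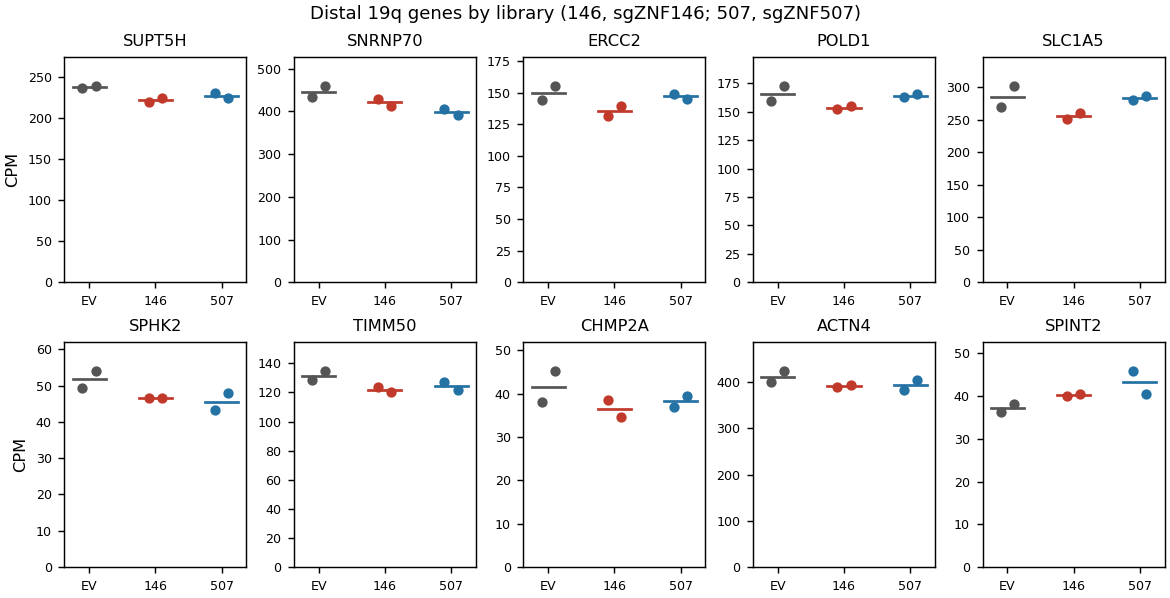
CPM of 10 distal genes in each library (points) with the group mean (lines) for EV, sgZNF146 and sgZNF507, from 0 on each vertical axis. The differences are a small part of each level, such as 236 and 238 CPM in EV against 219 and 225 in sgZNF146 for SUPT5H, and SPINT2 is higher in the guide libraries.

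Kinases, phosphatases and the cytoskeleton hold further members of high counts. PPP2R1A, the scaffold subunit of protein phosphatase 2A, had 354 and 320 CPM in EV, 326 and 327 in sgZNF146 and 373 and 341 in sgZNF507, and AKT2, a kinase of insulin signaling, had 209 and 207 CPM in EV, 206 and 198 in sgZNF146 and 212 and 212 in sgZNF507. PPP6R1, a regulatory subunit of protein phosphatase 6, had 220 and 243 CPM in EV, 217 and 217 in sgZNF146 and 226 and 229 in sgZNF507. ACTN4, a cross-linker of actin, had 399 and 424 CPM in EV, 390 and 394 in sgZNF146 and 384 and 403 in sgZNF507 (-0.072, SE 0.063, and -0.065, SE 0.063). The microtubule-associated protein EML2 had the lowest log2 fold change of the members of at least 10 CPM in sgZNF507 and with the guide groups together, with 20.05 and 20.003 CPM in EV, 17.6 and 16.8 in sgZNF146 and 16.7 and 17.1 in sgZNF507 (-0.22, SE 0.098, and -0.25, SE 0.098).

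**Figure D5:**
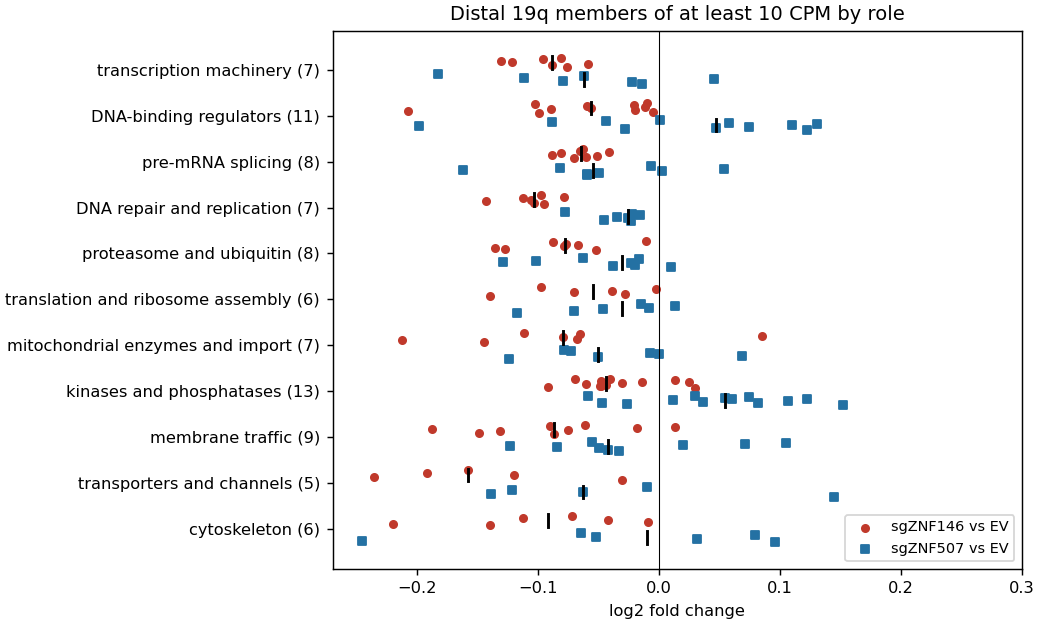
Log2 fold changes of distal members of at least 10 CPM by role, for sgZNF146 (red circles) and sgZNF507 (blue squares) against EV, with the number of genes in parentheses and the median as a black bar. The red points lie almost all below 0, with 13 genes among the kinases and phosphatases of which 10 are below 0, while the blue points spread over both sides.

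Apart from EML2, the lowest members of at least 10 CPM in sgZNF146 included LIPE (-0.30, SE 0.13), EPS8L1 (-0.28, SE 0.12) and PNMA8B (-0.22, SE 0.12), and the highest were SPINT2, CEACAM19 (0.095, SE 0.17), ZSCAN18 (0.089, SE 0.14), ETFB (0.085, SE 0.11) and PPP1R13L (0.030, SE 0.13). With 1 library left out, CEACAM19 reached -0.15, ZSCAN18 -0.011, ETFB -0.070 and PPP1R13L -0.12, while SPINT2 and the lowest members kept their sign. LIPE, the hormone-sensitive lipase, had 13.1 and 14.2 CPM in EV, 10.05 and 12.1 in sgZNF146 and 12.6 and 13.5 in sgZNF507. EPS8L1, a relative of the actin regulator EPS8, had 10.7 and 11.1 CPM in EV, 8.71 and 9.18 in sgZNF146 and 11.8 and 12.5 in sgZNF507, so it was lower in 1 disruption and higher in the other. In sgZNF507 the 5 lowest were EML2, CLEC11A (-0.22, SE 0.15), ATF5 (-0.20, SE 0.17), PAF1 and SPHK2 (-0.18, SE 0.083), and the 5 highest were SPINT2, EPS8L1 (0.16, SE 0.12), PPP1R13L (0.15, SE 0.13), TBC1D17 (0.15, SE 0.097) and TRPM4 (0.15, SE 0.12). Of these, ATF5 (0.093), PPP1R13L (-0.018) and TRPM4 (-0.018) changed sign with 1 library left out, and the others did not. SPHK2, a sphingosine kinase, had 49.4 and 54.0 CPM in EV, 46.5 and 46.5 in sgZNF146 and 43.3 and 47.9 in sgZNF507.

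The large tandem families of this arm were nearly silent. The genes of leukocyte and killer-cell receptors (LILR, KIR, SIGLEC and neighbors) had 9 of 32 members tested, pregnancy-specific glycoproteins and CEACAMs 6 of 21, kallikreins 5 of 15, NLRP genes 4 of 9, CYP2 enzymes 2 of 6, galectins 1 of 7 and gonadotropin beta chains 0 of 7. Among these, only CEACAM19 reached 10 CPM. Of the tested distal members, 114 overlap another annotated gene on the same strand, so their counts can include reads of a neighbor. Without the members that have such an overlap, the difference relative to 19p was -0.062 in sgZNF146 and -0.037 in sgZNF507.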

How the data were processed

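RNA from 6 libraries of HEK293 cells (2 each of EV, sgZNF146 and sgZNF507) was analysed. The authors trimmed the reads, discarded ribosomal RNA reads (Bowtie), aligned the remainder to hg19 (TopHat2, first-strand setting) and counted them by gene (featureCounts), with tool versions not given in the sources used here. The deposited table holds these raw counts. Symbols, classes and coordinates came from GENCODE mapped to GRCh37, which matched 96.1% of the identifiers.

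Genes were filtered with filterByExpr, normalized by TMM and fitted with glmQLFit on all 6 libraries in edgeR 4.0.16 (R 4.3.3), with p-values adjusted by Benjamini-Hochberg over 22010 genes and a threshold of 0.05. Standard errors were derived from the F statistic and are approximate. Log2 CPM per library used a prior count of 2. An exact permutation of 2 against 2 libraries cannot give a p below 0.333. The script was tested on simulated counts. Alternatives were DESeq2 1.42.0, other normalizations, filters and references, the replicate block and leaving out each library. Genes were named by rule: the 5 highest and 5 lowest of at least 10 CPM per comparison, the 3 of highest mean CPM per role list, the 3 tested members at each end of the stretch, and any past the threshold. Values are given for those the results turn on. Some genes that the rule names are not reported here. The genes next to the cuts on the near side were added after their values were seen. The members and lists were chosen with earlier results of these data known. Figures were drawn with matplotlib 3.10.9.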

Additional observations from a re-analysis of the deposited data

How the results depend on the processing

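In every alternative run, 0 distal members passed the threshold in the 3 comparisons, and the difference of the distal genes from 19p stayed below 0. For sgZNF146 it was -0.072 with genes of at least 10 CPM, -0.058 with all distal protein-coding genes and -0.074 with GC-matched autosomal genes as reference. For sgZNF507 it was -0.051 with summed CPM, -0.049 without the top gene of each set and -0.013 with all other autosomes as reference. For the guide groups together, the same 3 alternatives gave -0.060, -0.059 and -0.041, and GC-matched genes gave -0.059. Leaving out each library gave -0.066 to -0.058 for sgZNF146, -0.045 to -0.031 for sgZNF507 and -0.054 to -0.045 together. For the genes between the cuts it gave -0.030 to 0.012 in sgZNF146 and -0.12 to -0.039 in sgZNF507, where each end is 1 sgZNF507 library. The median log2 fold change of the members stayed between -0.095 and -0.045 in sgZNF146 and between -0.058 and -0.019 together, but ranged from -0.049 to 0.029 in sgZNF507.

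The count over all genes was 0 in sgZNF146, 40 in sgZNF507 and 3 with the guide groups together. Without a filter it was 19, 101 and 45, on the 4 libraries compared 3 in sgZNF146, and with DESeq2 8 for the guide groups together. Leaving out each library gave 0 to 3, 12 to 44 and 1 to 8. The labels share replicate numbers without naming a shared batch, and deviations of replicate 1 correlated between groups with r of 0.14, 0.18 and 0.15 across genes. With the replicate block, 33, 121 and 73 genes passed, and 0 distal members. Of 1842 values of named members under the alternatives, 94 had another sign than reported. The cause of these changes was not tested. With 2 libraries a group and a typical SE of 0.085, differences of a few percent in 1 gene are below what the test can show.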
